A study of Rattus norvegicus with 18 samples.

Results

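The Egr and Nr4a genes encode transcription factors that many cells switch on within minutes of a stimulus, and 9 genes of this group were followed through the first hours after a nerve was cut. They were the zinc finger factors Egr1, Egr2, Egr3 and Egr4, their co-repressors Nab1 and Nab2, and the orphan nuclear receptors Nr4a1, Nr4a2 and Nr4a3. A gene was taken if a probe of the array carried its name or an accession that maps to it, which gave 11 probes for the 9 genes, of 41012 probes under 35279 gene names. A probe was tested if every array of some time-point had it well above background, which held for 32109 probes under 27197 names and for all 11 of these.

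The samples were proximal segments of the left sciatic nerve of adult male Sprague-Dawley rats, the side of the cut that stays joined to the spinal cord. A piece of nerve was resected under an anaesthetic of trichloroacetaldehyde monohydrate, magnesium sulfate and sodium pentobarbital, and tissue was taken at 0 h and then after 0.5, 1, 3, 6 or 9 h, with 18 arrays in all and 3 for each time-point. The labels give the 0 h group the same resection, and no sham-operated group was analysed here. The labels do not say whether each array stands for 1 animal or several pooled, so P-values measure the spread between these samples, which may be technical. RNA was hybridized to Agilent arrays of 1 colour, where a brighter spot means that more of a transcript bound to its probe of 60 bases.

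EGR proteins bind GC-rich sites and are immediate early genes, transcribed from factors already present in the cell without new protein synthesis. EGR1 passes growth factor and injury signals on to genes of growth, clotting and matrix, whereas EGR2 (Krox-20) is the factor that Schwann cells (SCs) need to form and keep myelin. NAB1 and NAB2 bind to EGR proteins and restrain them, and Nab2 is itself an EGR target in several cell types. NR4A receptors bind DNA without a known natural ligand, so that their activity is set largely by how much of them is made.

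Levels are given as the log2 signal relative to the 75th percentile of the array, so that 1 unit is a doubling, 0 is the 75th percentile, and a value below 0 is a dimmer spot. Levels of different probes were not compared, since probes differ in binding. In limma, a change was called where the P-value was under 0.01 and, after Benjamini-Hochberg adjustment over all 32109 probes, under 0.05. The contrasts with 0 h share its 3 arrays. In whole tissue, fewer cells of a type and less RNA per cell cannot be told apart.

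The share of spots well above background lay between 65.9% and 93.5%, and the correlation between arrays of 1 time-point was 0.976 to 0.992. All 8 SC markers were well above background on all arrays, with a summed level of 447.5 to 555.3 at 0 h and 381.3 to 433.9 at 9 h on the linear scale of the normalized signal. A linear sum weighs bright genes most. At 9 h, limma called 3 of the 8 lower and 1 higher (14.8% and 15.6% of all probes), with log2 changes from -0.60 to 0.97. Of 9 skeletal muscle markers, limma called none over the time course, nor had any an unadjusted P-value under 0.05, but the 0 h arrays held a summed level of 1520, 97.3 and 138, against 59.4 to 123 at 0.5 h, 4.25 to 89.6 at 1 h and 3.08 to 414.2 at 6 h. The 3 arrays of 1 h thus lay below all of 0 h, with a median log2 change of -4.38 over the 9 genes and 1 of them at an unadjusted P-value under 0.05 in that contrast. The neutrophil markers rose from 1.44 to 2.42 at 0 h to 3.17 to 5.66 at 0.5 h and 19.6 to 23.2 at 9 h. Of 7 markers 2 were called higher at 0.5 h and 3 at 1 h (4.04% and 3.42% of all probes). At each later time-point 6 were called higher (7.2%, 12.2% and 15.6% of all probes at 3 h, 6 h and 9 h). The macrophage list stood at 25.6 to 27.8 at 0 h and 37.2 to 49.4 at 9 h, the endothelial list at 37.5 to 43.4 and 27.9 to 30.5, the fibroblast list at 1299 to 1387 and 901.3 to 958.5, and the adipocyte list at 47.0 to 81.5 and 72.4 to 92.5, while both erythroid genes tested summed to 1.79 to 11.2 and 7.58 to 13.1. Of 8 macrophage genes 2 were called higher and 1 lower at 9 h, where 15.6% and 14.8% of all probes were. Of 6 fibroblast genes 5 were called lower then, and of 7 endothelial genes 2, with none higher. At 0.5 h the adipocyte list, at 82.1 to 120.3, and the erythroid genes, at 13 to 19.0, lay above all arrays of 0 h, with no gene called and 3 of 5 and 1 of 2 at an unadjusted P-value under 0.05, and the fibroblast list, at 1265 to 1295, lay below them. At 1 h the macrophage list, at 18.9 to 23.6, lay below all arrays of 0 h, with 1 of 8 genes called lower (1.93% of all probes), and the erythroid genes, at 11.4 to 23.9, lay above them. The part of these lists in the values below was not tested. The first 2 time-points were scanned on 1 day, the next 3 and 2 arrays of 9 h on another, and the last array of 9 h apart from both, so a change from 0 h to 1 h or later cannot be told apart from scan day, whereas the contrasts of 0.5 h with 0 h, 3 h with 1 h and 6 h with 3 h lie within a day. Each of the 9 slides held arrays of 1 time-point, so no contrast lies within a slide. Slide as a random block left the counts of members called as they were, but it cannot remove a slide difference that coincides with time-point.

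Promoter sequence shows what the early members carry just before their start. RefSeq windows on GRCr8 were at hand for 7 of the 9 genes, with none for Egr3 and Nr4a3, and the 250 bases before the start were searched on both strands for 5 motifs. These were the CArG box, which serum response factor binds, TGACGTCA and its core CGTCA, which CREB and related factors bind, the EGR site GCGNGGGCG and the NR4A site AAAGGTCA. The windows of Egr2 (chr20:21054442-21054691, minus strand), Egr4 (chr4:119607818-119608067, minus strand) and Nr4a1 (chr7:134259888-134260137, plus strand) are printed because they differ in these motifs while all 3 genes were called at 1 h. Capitals mark CArG boxes and CGTCA, and each sequence runs 5′ to 3′ on the strand of its gene.
Egr2: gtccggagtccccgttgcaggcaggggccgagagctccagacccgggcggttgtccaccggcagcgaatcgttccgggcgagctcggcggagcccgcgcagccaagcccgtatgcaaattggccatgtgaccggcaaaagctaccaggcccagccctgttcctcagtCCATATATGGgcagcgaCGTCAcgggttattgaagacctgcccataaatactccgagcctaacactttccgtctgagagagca
Egr4: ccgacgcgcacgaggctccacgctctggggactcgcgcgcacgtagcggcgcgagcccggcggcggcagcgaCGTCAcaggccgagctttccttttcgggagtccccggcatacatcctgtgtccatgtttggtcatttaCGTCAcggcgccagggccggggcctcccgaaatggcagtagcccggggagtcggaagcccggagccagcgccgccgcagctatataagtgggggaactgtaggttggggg
Nr4a1: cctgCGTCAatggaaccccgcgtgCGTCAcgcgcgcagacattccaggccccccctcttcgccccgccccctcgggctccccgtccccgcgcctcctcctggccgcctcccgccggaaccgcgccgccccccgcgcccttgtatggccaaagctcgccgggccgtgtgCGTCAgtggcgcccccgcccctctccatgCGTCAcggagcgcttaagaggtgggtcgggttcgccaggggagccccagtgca
Egr2 held 1 CArG box, 83 to 74 bases before the start, with 1 CGTCA 66 to 62 bases before it. The Egr1 window held 2 CArG boxes, the nearer at 83 to 74 bases, and 2 CGTCA matches, at 135 to 131 and 66 to 62 bases. Egr4 held CGTCA at 178 to 174 and 110 to 106 bases and no CArG box, and Nr4a1 held 4 CGTCA matches. Of the 33469 promoters of the table, 1.5% held a CArG box, 0.0209% at least 2, 18.2% held CGTCA, 3.98% at least 2 and 0.173% at least 4. The full TGACGTCA (1.59% of all promoters) and AAAGGTCA (1.24%) were in none of the 7 windows, and GCGNGGGCG (4.29%) was in those of Nab1, 3 times, and Nr4a1. Nab1 and Nr4a2 had 1 CGTCA each and Nab2 had no match to any of the 5. A match of letters is a description of the window and no measurement of binding.

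Across the time course, 6 of the 9 genes were called in the moderated F-test, namely Egr1, Egr2, Egr4, Nr4a1, Nr4a2 and Nr4a3, where 34.2% of all probes were. At 0.5 h, 5 genes had risen against 0 h (4.04% of all probes rose), Egr1, Egr2 and the 3 Nr4a genes. At 1 h, Egr4 joined them, which made 6 of 9 (3.42% of all probes). At 3 h the same 5 genes as at 0.5 h were higher than at 0 h (7.2% of all probes), at 6 h 3 genes, Egr1, Nr4a2 and Nr4a3 (12.2%), and at 9 h Egr1 and Nr4a2 (15.6%). By limma no member was called lower than at 0 h at any time-point, and none was lower at an unadjusted P-value under 0.05. The plot of the 9 genes on the 18 arrays shows these courses.

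**Figure D1:**
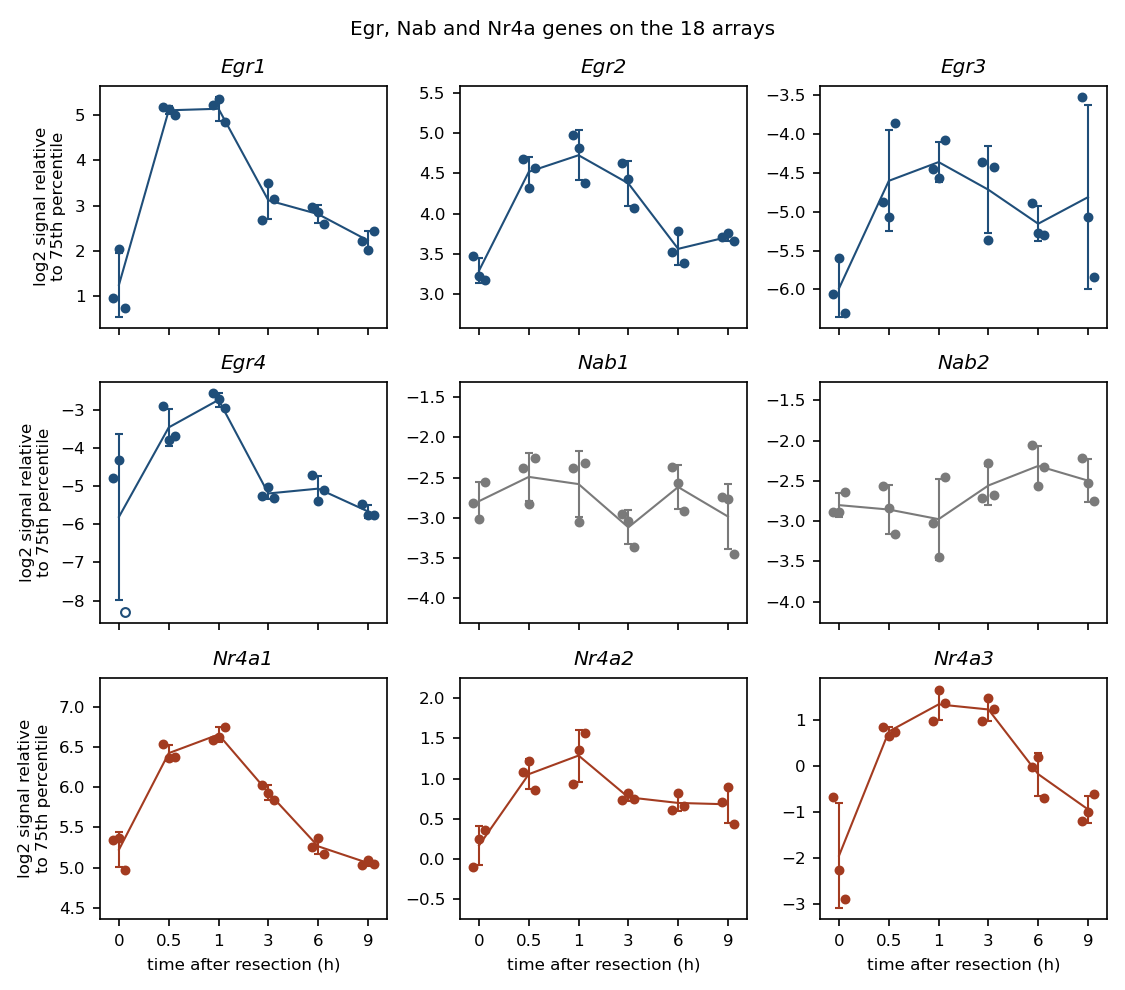
Log2 signal of each gene over the array's 75th percentile, against time after resection in h, with 1 point for each of the 3 arrays of a time-point and the mean ± SD as a line with bars. The open point is the array on which the Egr4 probe was not well above background. The levels of Egr1 were between 5.01 and 5.16 at 0.5 h against 0.74 to 2.05 at 0 h. Each panel has its own range of levels.

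Egr1, the founding member of its family, was measured by 1 probe, printed on 10 spots of each array, at chr18:27347173-27347232 of rn4 on the plus strand. At 0 h, Egr1 stood at 0.97, 2.05 and 0.74, and then at 5.16, 5.14 and 5.01 on the arrays of 0.5 h and 5.21, 5.35 and 4.85 on those of 1 h. The later arrays gave 2.69, 3.51 and 3.15 for 3 h, 2.97, 2.86 and 2.60 for 6 h and 2.21, 2.03 and 2.45 for 9 h. The arrays of 0.5 h and 1 h stood above every other array, and those of 3 h and 6 h above all of 0 h, while 1 array of 9 h lay just under the second array of 0 h. The rise was 14.4-fold at 0.5 h (log2 change 3.85 ± 0.28, SE, adjusted P-value 9.64e-06) and 14.8-fold at 1 h (3.88, adjusted P-value 5.47e-06). From 1 h to 3 h the level fell by 2.02 on the log2 scale (adjusted P-value 0.000701). It was still 3.64-fold above 0 h at 3 h (adjusted P-value 0.000736) and 2.95-fold at 6 h (adjusted P-value 0.00139). The 1.97-fold difference at 9 h (adjusted P-value 0.017) was no longer called when any of 4 arrays was left out, namely replicate 1 or 3 of 0 h (log2 change 0.84 and 0.72) or replicate 1 or 3 of 9 h (0.99 and 0.87). It was lost too with only the arrays of the contrast in the fit (adjusted P-value 0.0853) and when the median of the array replaced its 75th percentile (0.81, adjusted P-value 0.0348).

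Egr2, the SC myelin regulator, was read by 1 probe at chr20:21883940-21883999 of rn4 on the minus strand. Replicates 1 to 3 of Egr2 read 3.47, 3.23 and 3.18 when the series began (0 h), 4.68, 4.32 and 4.56 after 0.5 h and 4.98, 4.82 and 4.38 after 1 h. They read 4.62, 4.43 and 4.07 after 3 h, 3.53, 3.78 and 3.38 after 6 h and 3.71, 3.76 and 3.67 after 9 h. All 9 arrays of 0.5 h to 3 h stood above all arrays of the other 3 time-points. The rise was 2.34-fold at 0.5 h (log2 change 1.23 ± 0.17, SE, adjusted P-value 0.00144), 2.70-fold at 1 h (adjusted P-value 0.000332) and 2.12-fold at 3 h (adjusted P-value 0.000968). At 6 h it had fallen by 0.81 on the log2 scale from 3 h (adjusted P-value 0.0175), a call that was lost when either of replicates 1 and 2 of 3 h or either of replicates 1 and 3 of 6 h was left out (adjusted P-value 0.0559 to 0.0783). The 3 arrays of 9 h were all above those of 0 h, by 0.42 on the log2 scale, which did not pass the test (adjusted P-value 0.071) but did with quantile normalization (0.51, adjusted P-value 0.0241) and in 3 other settings. With normexp background correction the rise at 3 h (0.84, adjusted P-value 0.0502) and the fall to 6 h (-0.59, adjusted P-value 0.232) were not called, and with only the arrays of the contrast the fall was not (adjusted P-value 0.119).

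The step of Egr2 from 1 h to 3 h was -0.35 on the log2 scale and not called (adjusted P-value 0.23). On the same array, the level of Egr1 less that of Egr2 ran from 0.23 to 0.53 at 1 h and -1.93 to -0.92 at 3 h, a change of -1.67 ± 0.35 (SE). The exact permutation test of 3 arrays against 3 gave P = 0.1, two-sided, the smallest it can give, and the pair was chosen after its values were seen.

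Egr3, a factor of muscle spindles and lymphocytes among other cells, was dim, with a processed signal between 16.2 and 148 before normalization, at chr15:50478983-50479042 of rn4 on the plus strand. At 0 h, Egr3 stood at -6.06, -5.59 and -6.31, and then at -4.87, -5.07 and -3.86 on the arrays of 0.5 h and -4.45, -4.56 and -4.07 on those of 1 h. The later arrays gave -4.36, -5.36 and -4.42 for 3 h, -4.89, -5.27 and -5.30 for 6 h and -3.52, -5.07 and -5.84 for 9 h. Every array of 0.5 h to 6 h stood above every array of 0 h, but the groups spread widely and no contrast passed the test. The log2 change from 0 h was 1.39 ± 0.48 (SE) at 0.5 h (adjusted P-value 0.109) and 1.63 at 1 h (adjusted P-value 0.0657). Replicate 1 of 9 h was the brightest of all, and without it the contrasts of 0.5 h, 1 h and 3 h with 0 h were called, at adjusted P-values of 0.0399, 0.0201 and 0.0315, and so was the time course (adjusted P-value 0.0196). Without replicate 3 of 9 h, those of 1 h and 9 h with 0 h were called (adjusted P-values 0.0294 and 0.0165). The 1 h contrast was also called among probes well above background on every array (adjusted P-value 0.0467) and with only its own arrays in the fit (adjusted P-value 0.00818), as was that of 6 h (adjusted P-value 0.0482), and that of 9 h was called with array weights (adjusted P-value 0.00323).

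Egr4, best known from brain and germ cells, was read by 1 probe at chr4:119765289-119765348 of rn4 on the minus strand. Replicates 1 to 3 of Egr4 read -4.78, -4.31 and -8.31 when the series began (0 h), -2.89, -3.78 and -3.68 after 0.5 h and -2.56, -2.70 and -2.93 after 1 h. They read -5.24, -5.01 and -5.31 after 3 h, -4.70, -5.38 and -5.11 after 6 h and -5.47, -5.76 and -5.75 after 9 h. Replicate 3 of 0 h was the only array of the 18 on which the probe was not well above background. All 6 arrays of 0.5 h and 1 h stood above all 12 others. Against 0 h the log2 change was 2.35 ± 0.71 (SE) at 0.5 h (adjusted P-value 0.0692) and 3.07 at 1 h (8.42-fold, adjusted P-value 0.0236). From 1 h to 3 h the level fell by 2.46 on the log2 scale (adjusted P-value 0.0414). The 1 h call was lost without any 1 of the 3 arrays of 1 h (adjusted P-value 0.0507 to 0.0735), and the fall to 3 h was not called in 12 of 18 leave-one-out fits (adjusted P-value 0.052 to 0.114). Without the dim array of 0 h the spread was smaller, and the rise at 0.5 h was 1.1 on the log2 scale (adjusted P-value 0.0415), that at 1 h was 1.82 (adjusted P-value 0.00292), the step from 1 h to 3 h had an adjusted P-value of 0.000106, and the level at 9 h was 1.11 below 0 h (log2 change -1.11, adjusted P-value 0.00827) in place of 0.14 above it. The time course call of Egr4 was lost without replicate 1 or 2 of 1 h, and leaving out replicate 2 of 0 h made the 0.5 h rise pass (3.09, adjusted P-value 0.0362) and moved the 1 h rise to 3.82. With normexp background correction the 1 h rise was 1.75 on the log2 scale (adjusted P-value 0.257) and the step to 3 h was -0.57 (adjusted P-value 0.973), neither of them called, and with only the arrays of the contrast the 1 h rise was not called either (adjusted P-value 0.119).

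The co-repressors Nab1 and Nab2 did not pass the test over the time course (adjusted P-values 0.203 and 0.174) or in any contrast. The Nab1 probe, given by the files as chr9:46104881-46113704 of rn4 on the plus strand, a span longer than its 60 bases, had levels of -3.02 to -2.55 at 0 h, -2.83 to -2.26 at 0.5 h, -3.05 to -2.32 at 1 h, -3.36 to -2.95 at 3 h, -2.92 to -2.37 at 6 h and -3.45 to -2.75 at 9 h. The Nab2 probe at chr7:67646690-67646749, minus strand, had levels of -2.89 to -2.63 at 0 h, -3.16 to -2.56 at 0.5 h, -3.45 to -2.45 at 1 h, -2.71 to -2.28 at 3 h, -2.56 to -2.06 at 6 h and -2.75 to -2.21 at 9 h. Their log2 changes from 0 h lay between -0.33 and 0.30 (SE 0.24) for Nab1 and between -0.17 and 0.49 (SE 0.24) for Nab2. The 3 arrays of 6 h were all above those of 0 h for Nab2 (log2 change 0.49, adjusted P-value 0.148), and for all other contrasts of both genes with 0 h the arrays overlapped. With array weights, Nab2 at 3 h against 1 h was called (0.63, adjusted P-value 0.05 after rounding), where without them the change was 0.42 (adjusted P-value 0.309).

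**Figure D2:**
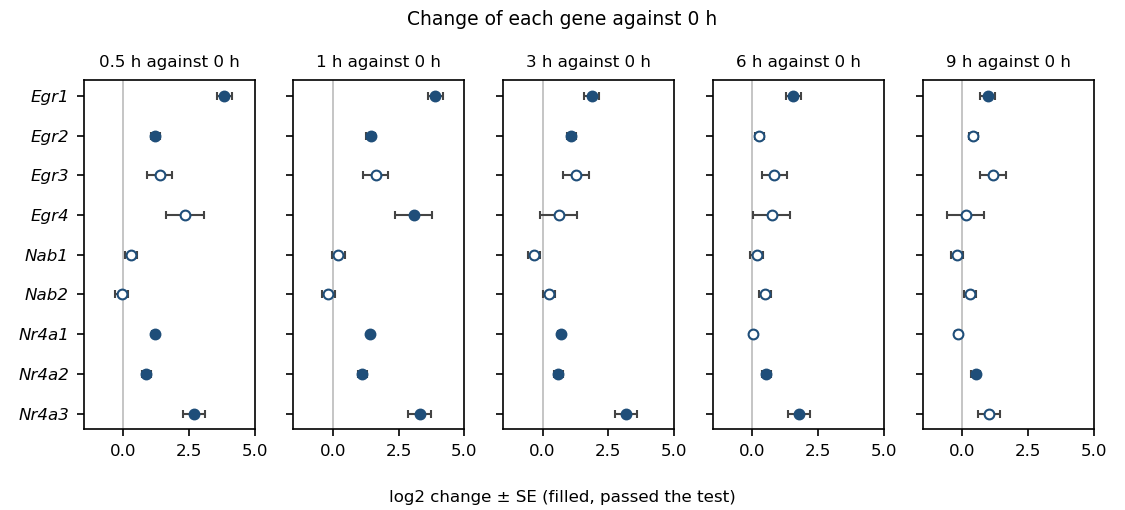
Log2 change of each gene against 0 h, with 1 panel for each later time-point, as the fitted value ± SE from 3 arrays a group, filled where it was called. Egr1 is at 3.88 and Nr4a3 at 3.29 at 1 h, and by 9 h 2 genes are filled, Egr1 and Nr4a2.

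Nr4a1 (Nur77), which is induced by growth factors and stress in many tissues, was read by 1 probe at chr7:140020442-140020501 of rn4 on the plus strand. Its processed signal was bright, between 40230 and 132900 before normalization. Spots were not left out for saturation, and its effect on the folds was not tested. At 0 h, Nr4a1 stood at 5.34, 5.36 and 4.97, and then at 6.53, 6.37 and 6.37 on the arrays of 0.5 h and 6.59, 6.62 and 6.75 on those of 1 h. The later arrays gave 6.03, 5.93 and 5.84 for 3 h, 5.25, 5.37 and 5.18 for 6 h and 5.04, 5.10 and 5.04 for 9 h. The arrays of 1 h stood above all others, those of 3 h lay below the arrays of 0.5 h and above the remaining 9, and those of 6 h and 9 h were within the range of 0 h, apart from 1 array of 6 h at 5.37. The rise was 2.30-fold at 0.5 h (log2 change 1.20 ± 0.11, SE, adjusted P-value 4.06e-05), 2.69-fold at 1 h (adjusted P-value 5.84e-06) and 1.64-fold at 3 h (adjusted P-value 0.000652). The level fell by 0.72 on the log2 scale from 1 h to 3 h (adjusted P-value 0.000974) and fell by 0.67 from 3 h to 6 h (adjusted P-value 0.0053). At 9 h the log2 change from 0 h was -0.17 (adjusted P-value 0.244), and without replicate 3 of 0 h it was -0.29 and called (adjusted P-value 0.0378). Normexp background correction ended the calls of the rise at 3 h (0.47, adjusted P-value 0.177) and of both falls (adjusted P-values 0.12 and 0.232), and so did a fit to the arrays of the contrast alone for both falls (adjusted P-values 0.0502 and 0.0824).

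Nr4a2 (Nurr1), known for its part in dopamine neurons and in restraining inflammation, was read by 1 probe at chr3:38867021-38867080 of rn4 on the minus strand. Replicates 1 to 3 of Nr4a2 read -0.10, 0.24 and 0.36 when the series began (0 h), 1.08, 1.22 and 0.86 after 0.5 h and 0.93, 1.36 and 1.57 after 1 h. They read 0.74, 0.82 and 0.74 after 3 h, 0.62, 0.82 and 0.66 after 6 h and 0.71, 0.90 and 0.43 after 9 h. All 15 later arrays stood above the 3 arrays of 0 h. The rise was 1.85-fold at 0.5 h (log2 change 0.89 ± 0.17, SE, adjusted P-value 0.00986) and 2.17-fold at 1 h (adjusted P-value 0.00189), and 1.51-fold, 1.44-fold and 1.43-fold at 3 h, 6 h and 9 h (adjusted P-values 0.031, 0.0325 and 0.0304). These last 3 calls were near the limit, and were lost in 5, 6 and 12 of 18 leave-one-out fits. Each was lost without replicate 1 of 0 h, at log2 changes of 0.46, 0.39 and 0.38, and with the array's median in place of the 75th percentile, at 0.51, 0.39 and 0.34. That last setting lost the 0.5 h call too (0.73, adjusted P-value 0.0534), and with normexp background correction only the 1 h call of Nr4a2 was left (adjusted P-value 0.0912 at 0.5 h). The step from 1 h to 3 h was -0.52 on the log2 scale and not called (adjusted P-value 0.0674), and with replicate 1 of 1 h left out it passed (-0.69, adjusted P-value 0.0216).

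Nr4a3 (NOR-1) had 3 probes on chromosome 5 of rn4, all on the plus strand, at 64753210-64753269, 64754182-64754241 and, 25853 bases upstream of the first, 64727357-64727416. The first, brightest on average, stands for the gene. At 0 h, Nr4a3 stood at -0.68, -2.26 and -2.90, and then at 0.87, 0.66 and 0.75 on the arrays of 0.5 h and 0.99, 1.67 and 1.39 on those of 1 h. The later arrays gave 0.98, 1.49 and 1.25 for 3 h, -0.02, 0.20 and -0.69 for 6 h and -1.20, -1.0 and -0.61 for 9 h. All 9 arrays of 0.5 h to 3 h stood above all others. At 6 h, 1 array lay just under the highest of 0 h. The 0 h array with the highest level, replicate 1, was also the one with a summed skeletal muscle level of 1520 against 97.3 and 138 on the others, and the part of muscle in it was not tested.

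The rise of Nr4a3 was 6.51-fold at 0.5 h (log2 change 2.70 ± 0.42, SE, adjusted P-value 0.00294), 9.81-fold at 1 h (adjusted P-value 0.000517), 9.08-fold at 3 h (adjusted P-value 0.000242) and 3.42-fold at 6 h (adjusted P-value 0.0069). Without replicate 1 of 0 h the log2 changes at these 4 time-points were larger, at 3.34, 3.93, 3.82 and 2.41. At 9 h the change was 1.01 and not called (adjusted P-value 0.0757), and without that array it was 1.64 (adjusted P-value 0.00119). The step from 3 h to 6 h was -1.41 on the log2 scale (adjusted P-value 0.0684), and was called without replicate 1 or replicate 3 of 0 h (adjusted P-values 0.0107 and 0.038). The second probe gave rises of 4.96-fold, 7.33-fold, 7.39-fold and 3.13-fold from 0.5 h through 1 h and 3 h to 6 h, all called (adjusted P-values 0.00786, 0.0016, 0.000531 and 0.0109). With only the arrays of the contrast, the calls of the first probe at 0.5 h and 6 h were lost (adjusted P-values 0.0619 and 0.0873).

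The upstream probe, which the files assign to another transcript accession of Nr4a3, was not used for the gene and is given by itself. Replicates 1 to 3 of the upstream probe read -4.29, -2.11 and -5.15 when the series began (0 h), 0.84, 0.70 and 0.36 after 0.5 h and -0.57, -0.69 and -0.75 after 1 h. They read -2.48, -2.34 and -2.30 after 3 h, -3.06, -2.90 and -2.87 after 6 h and -3.88, -3.98 and -2.91 after 9 h. All 3 arrays of 0.5 h stood above those of 1 h, which stood above all arrays of 3 h, which in turn stood above those of 6 h. The rise was 22.4-fold at 0.5 h (log2 change 4.48 ± 0.53, SE, adjusted P-value 0.000336) and 9.08-fold at 1 h (adjusted P-value 0.00341), while the 3 h value, 1.48 on the log2 scale, missed the limit (adjusted P-value 0.081). The arrays of 0 h ranged over 3.05 on the log2 scale, so the size of these rises depends on single arrays of 0 h. Neither its step from 0.5 h to 1 h (-1.30, adjusted P-value 0.327) nor that from 1 h to 3 h (-1.70, adjusted P-value 0.0566) was called.

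**Figure D3:**
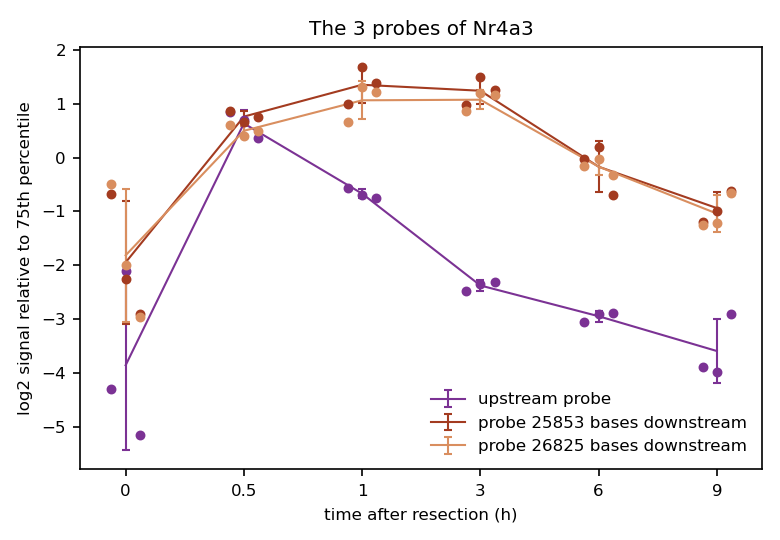
Log2 signal of the 3 Nr4a3 probes relative to the 75th percentile of the array, against time after resection in h, with 1 point for each array and the mean ± SD as a line with bars. The upstream probe is highest at 0.5 h (0.36 to 0.84) and at -2.48 to -2.30 by 3 h, when the downstream probes are between 0.87 and 1.49.

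The difference between probes was followed within each array, since a level of 1 probe cannot be set against that of another but its change can. At 0 h the upstream probe less the first was -3.62, 0.15 and -2.26, a spread that takes in nearly all later values. It stood at -0.40 to 0.05 at 0.5 h, -2.36 to -1.56 at 1 h and -3.82 to -3.46 at 3 h. Its mean changed by -1.89 from 0.5 h to 1 h and by -3.48 from 0.5 h to 3 h. Against the second probe the changes were -1.87 and -3.58. In each of these 4 comparisons the arrays of both time-points did not overlap, and the exact permutation test gave P = 0.1, two-sided, the smallest that 3 arrays against 3 allow.

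Between neighbouring time-points, the main steps were the first rise and a later fall. The largest fall came after 1 h for Egr1, Egr4 and Nr4a1. It came after 3 h for Egr2 and, on its first probe and not called, for Nr4a3. From 0.5 h to 1 h, limma called no member (0% of all probes, none of 32109), 1 member, Nr4a1, had an unadjusted P-value under 0.05, as had 4198 probes, and the other settings called 0 to 476 probes. From 1 h to 3 h, 3 members fell, Egr1, Egr4 and Nr4a1 (4.45% of all probes fell). From 3 h to 6 h, Egr2 and Nr4a1 fell (2.43%). From 6 h to 9 h no member was called (0.0125%, or 4 probes, either way), none had an unadjusted P-value under 0.05, against 3702 probes, and the other settings called 0 to 882 probes. The order of levels within a gene is thus unresolved between 0.5 h and 1 h and between 6 h and 9 h.

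The step of Nr4a3 from 1 h to 3 h, -0.11 on the log2 scale, was not called (adjusted P-value 0.912). On the second probe the step was 0.01 and on the upstream probe -1.70 (adjusted P-values 0.992 and 0.0566). The pairs with Nr4a3 below use its first probe and depend on that choice. Egr1 less Nr4a3, taken within arrays, ran from 3.46 to 4.23 at 1 h and 1.71 to 2.02 after 3 h, a change of -1.91 ± 0.25 (SE), with an exact permutation P = 0.1, two-sided, again the smallest possible. Nr4a1 less Nr4a3 ran from 4.95 to 5.60 at 1 h and 4.45 to 5.05 after 3 h, which overlap (change -0.61 ± 0.26, SE, exact permutation P = 0.2). With the pair of Egr1 and Egr2 above these were the only 3 pairs so compared, and all were chosen after their values were seen.

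Across the 18 arrays, which share the time course, the members' levels were correlated to different degrees, given here as a description. Pearson's r with Egr1 was 0.90 for Nr4a1, 0.85 for Egr2, 0.85 for Egr4, 0.83 for Nr4a2, 0.79 for Nr4a3, 0.57 for Egr3, 0.31 for Nab1 and -0.36 for Nab2. Among 5537 probes with a listed gene symbol that were called over the time course, those most like Egr1 were Btg2, a brake on cell division (r = 0.976), Ccn1, the matricellular protein once named Cyr61 (0.971), and the stress factor Atf3 (0.969). The nearest to Egr2 were Arl4a, a small GTPase (0.900), Rgs1, a regulator of G protein signals (0.899), and Nr4a1 (0.898), and to Egr4 Apold1, an early gene of endothelium (0.898), the factor Klf2 (0.894) and the kinase Wee1 (0.892). Nr4a1 was nearest to Depp1 (0.956), to Dusp1, a phosphatase that switches off MAP kinases (0.954), and to the mitochondrial carrier Slc25a25 (0.945). Nr4a2 was nearest to the ligand Wnt11 (0.887), to Atf3 (0.881) and to Zfp36, which speeds decay of inflammatory mRNAs (0.871), and Nr4a3 to Apold1 (0.919), to cyclin L1, Ccnl1 (0.917), and to Arrdc3 (0.916).

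Of 17 genes that act before the members in the response, genes for serum response factor, its partners, CREB family factors and the MAP kinase pathway, 15 were tested, and limma called none at 0.5 h or 1 h against 0 h, where 3 and 1 had an unadjusted P-value under 0.05, with median log2 changes of -0.04 and 0.03. With 5.71% and 5.35% of all probes called in either direction, a count of 0 among 15 is near the background. At 3 h, 4 were higher (7.2% of all probes) and 1 was lower (6.41%). By 6 h 4 were higher (12.2%) and 2 lower (12.4%), and by 9 h 6 were higher (15.6%) and 1 lower (14.8%). The largest rise was that of Crem, a cAMP-responsive regulator that also gives a repressor of early genes, at 0.17 to 0.60 at 0 h and 1.79 to 2.19 at 3 h (3.27-fold, adjusted P-value 5.78e-05). Rps6ka3, a kinase of the ERK pathway, rose 2.15-fold at 3 h (adjusted P-value 0.000406), and its relative Rps6ka5 fell by 0.52 on the log2 scale at 9 h (adjusted P-value 0.00656). Elk3, a partner of serum response factor, had its lowest value at 3 h (log2 change -0.58, adjusted P-value 0.0529).

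The other immediate early genes moved early as well. Of 22 tested, all were called over the time course (34.2% of all probes), 16 were higher at 0.5 h (4.04%) and 20 at 1 h (3.42%). By 3 h the number was 19 (7.2%), by 6 h 16 (12.2%) and by 9 h 12 (15.6%), and limma called none lower than at 0 h. Their median log2 change was 1.33, 1.84, 1.13, 0.86 and 0.75 in that order, where that of all probes was 0.00 to 0.02. From 1 h to 3 h, 10 of 22 fell (4.45%) and 1 rose. Fos, the partner of JUN in AP-1, went from -1.60 to -0.10 at 0 h to 4.21 to 5.03 at 0.5 h (51.7-fold, adjusted P-value 5.23e-07). Fosl1, a later member of the Fos family, went from -3.79 to -2.96 at 0 h to 3.10 to 3.64 at 6 h (log2 change 6.79, adjusted P-value 1.38e-09). The lowest changes were those of Klf10 at 0.5 h (log2 change -0.43, adjusted P-value 0.0924) and Klf4 at 9 h (-0.18, adjusted P-value 0.398), neither of them called.

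Of 12 genes reported elsewhere as EGR1 targets, all tested, 3 were higher at 0.5 h and at 1 h (4.04% and 3.42% of all probes) and 1 was lower (1.67% and 1.93%), 7 were higher after 3 h (7.2%), 8 after 6 h (12.2%) and 9 after 9 h (15.6%), with 1 lower by then (14.8%). Their median log2 change was 0.12 and 0.28 at 0.5 h and 1 h and 0.99, 0.97 and 1.00 after that. Ptgs2, which makes prostaglandin precursors, rose 6.96-fold at 0.5 h (adjusted P-value 8.38e-05). Tgfb1, a growth factor of fibrosis, fell by 0.64 on the log2 scale at 0.5 h (adjusted P-value 0.0134), and F3, tissue factor, fell by 0.42 at 9 h (adjusted P-value 0.0295). Neutrophil markers rose over the same hours, as given above, and their part in these values was not tested.

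**Figure D4:**
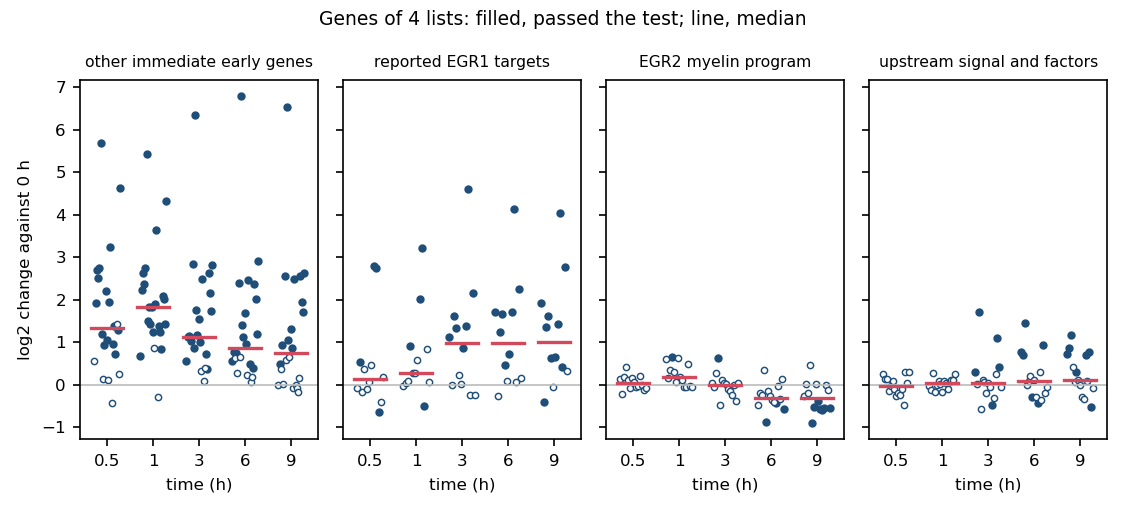
Log2 change against 0 h of each tested gene of 4 lists, with 1 point for each gene and time-point, filled where it was called, and the median as a line. The medians of the other immediate early genes are 1.33 and 1.84 at 0.5 h and 1 h, and those of the EGR2 myelin program are -0.30 and -0.32 at 6 h and 9 h.

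Of 14 myelin genes that EGR2 regulates in SCs, limma called none at 0.5 h (4.04% of all probes higher), where 1 had an unadjusted P-value under 0.05, and 1 higher at 1 h (3.42%) and 1 after 3 h (7.2%). At 6 h, 3 were lower than at 0 h (12.4% of all probes lower), which is near the background, and by 9 h 7 were (14.8%), with a median log2 change of -0.30 and -0.32. Mag, a glycoprotein at the contact of myelin with the axon, went from 2.44 to 3.03 at 0 h to 1.57 to 2.01 at 9 h and fell by 0.90 on the log2 scale (adjusted P-value 0.0023). Pmp22, a protein of compact myelin, fell by 0.60 at 9 h (adjusted P-value 0.0019). Some genes of this list are also on that of SC markers. Of 6 fibroblast markers, 3 were lower and 1 higher at 6 h, and 5 were lower at 9 h (12.4% and 14.8% of all probes lower). What these falls share was not tested.

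Of 6 partners of EGR and NR4A proteins, 5 were tested, and Wt1, a zinc finger factor that binds EGR sites, was too dim. Rxrg, a retinoid receptor of the kind with which NR4A1 and NR4A2 pair, went from 2.66 to 2.94 at 0 h to 2.18 to 2.44 at 3 h and fell by 0.53 on the log2 scale (adjusted P-value 0.00285), and was lower at 6 h and 9 h too (-0.38 and -0.53, adjusted P-values 0.0107 and 0.0011). Chd4, a chromatin remodeller that NAB2 recruits, was called over the time course (adjusted P-value 0.0168) and fell by 0.71 from 1 h to 3 h (adjusted P-value 0.025), though it was called in no contrast with 0 h. Rxra, Rxrb and Ddx20, a helicase that binds EGR2, passed no test, with adjusted P-values over the time course of 0.276, 0.122 and 0.424.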

How the data were processed

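The authors deposited the Agilent scanner output of each array, made with Feature Extraction 10.5.1.1 per the file headers. In it the authors' software had subtracted background and spatial trends, and the deposited values used here are these intensities on a linear scale. The deposited matrix of log2 values ranks probes as the scanner output does and has a median of 7.75 on every array, so its scale and direction are known and its genes were not centred. The deposited flags for control, outlier and well-above-background spots (unit other) were used as given. Probe coordinates are those of the files (rn4), and no exon or UTR was assigned.

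Control spots and outliers were dropped, each log2 processed signal had the array's 75th percentile subtracted, and repeat spots were averaged. Probes that every array of some time-point had well above background were tested with limma 3.58.1 (R 4.3.3), all 6 time-points in 1 model, on simulated data first. Of 41012 probes, 16336 got a gene name by accession, and with symbols listed in RefSeq the number was 21166. A gene is represented by its brightest tested probe. Tables, motifs and plots used Python 3.11.15, numpy 2.4.6, pandas 2.3.3 and matplotlib 3.10.9.

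The members, lists and tests were chosen with earlier results of these data known. Named genes are the members, the 2 largest rises and falls of each list among genes called over the time course, all tested partners, and for each called member the 3 most correlated genes. Some genes that this rule names are not reported here. In the lists, Elk1, Wt1 and Lep were too dim to test, Mkl2, Hba-a1 and Hba-a2 were not found by name, and Il8rb, an older name of Cxcr2, was counted once. Alternatives were normexp (offset 50), a shift to the median, quantile normalization, other filters, the deposited matrix, blocks for replicate number, scan day and slide, array weights, a fit to the arrays of the contrast alone, a trended robust prior, other call rules, the mean over probes, and leaving out each array. Precision is limited by how many arrays there were and by brightness over background.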

Additional observations from a re-analysis of the deposited data

How the results depend on the processing

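In the 30 other settings that gave one, the count of members called over the time course, 6, stayed within 1.5 times (5 to 7 with 1 array left out), as did the count at 0.5 h against 0 h in 33 settings and those at 1 h and 6 h in 32. Normexp background correction gave a median log2 change of all probes from 0 h of 0.31 at 1 h and 0.44 at 3 h. With it, 2 members were called at 3 h against 0 h, 1 at 9 h, 1 at 3 h against 1 h and 0 at 6 h against 3 h. It called 3465 probes over the time course in place of 10984, 132 in place of 1835 at 0.5 h and 3031 in place of 9776 at 9 h, and the cause was not tested. A limit of 2-fold left 3 members at 3 h, 0 at 9 h and 0 at 6 h against 3 h, since it adds a condition. With only the arrays of the contrast there was 1 member at 9 h, Egr2 in place of Egr1 and Nr4a2, and 0 at 6 h against 3 h. At 9 h a shift to the median (with a median log2 change of all probes of -0.16 to -0.09 against 0 h) called 0 members, no filter on dim probes 1, and array weights 5. In that contrast these settings called 10067, 9493 (of 40684) and 12908 probes, against 9776 in the main fit. With 1 array left out, the count was 0 to 3 at 9 h against 0 h and 1 to 3 at 6 h against 3 h. Of single members, the change of Egr4 at 9 h against 0 h, not called, reversed to -0.23 with normexp, -0.47 with quantile normalization, -0.0271 with a shift to the median and -0.43 in the deposited matrix, and with 1 array left out it ran from -1.11 (without replicate 3 of 0 h, the dim array) to 0.887. Replicate numbers were not taken to pair the samples, since correlations of deviations between arrays of the same number ran from -0.261 to 0.565 (median 0.0697, other numbers 0.00668). That 11 of 18 arrays were closest to an array of their own number, where equal shares for the 3 numbers would be 6, is a hint from the data that some share more than a number. A replicate block left every count of members as it was, 6 over the time course, 5 at 0.5 h and 2 at 9 h among them. With scan day as a block, 5 members were called at 0.5 h, 3 at 3 h against 1 h and 2 at 6 h against 3 h. These contrasts lie within a day, so that block only sets the last array of 9 h apart and does not adjust them. Of the 11 probes, that of Egr4, not well above background on 1 array of 0 h, had the widest SE, 0.71.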
